A study of Mus musculus with 6 samples.

Results

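Cadherins and protocadherins are calcium-dependent cell surface proteins with repeated cadherin domains. The members described here are rows of the gene table whose symbol is Cdh and a number, or Pcdh, optional letters and a number. A Pcdh symbol may have more letters after the number. With Cdh5 left out, 70 of 20645 rows are members. They comprise 14 cadherins, 10 protocadherins outside the gene clusters and 46 clustered protocadherins. Expression was measured by RNA sequencing of mouse lung cells that the labels call MSC, sorted by a membrane reporter, in 3 red libraries (mT) and 3 green libraries (mG). Both groups came from C57BL/6 mice of the genotype Tbx4-rtTA/TetO-Cre/mT-mG, which were given doxycycline from embryonic day 6.5 to postnatal day 1. In this line a Tbx4 element drives the doxycycline-dependent activator rtTA, rtTA switches on Cre, and Cre turns the reporter from TdTomato (mT) to GFP (mG). A green cell, or an ancestor of it, had therefore undergone recombination, whereas a red cell had not. The comparison asks how these MSC subpopulations differ. Neither the age at isolation nor the number of animals behind a library is stated, and nothing says that replicates came from separate animals. The p-values below therefore reflect the variation among 6 libraries, part of which may be technical.

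Classical cadherins join cells by binding to cadherins on the neighbouring cell, while their cytoplasmic tails hold catenins that link to actin. Type I members include N-cadherin (Cdh2), typical of mesenchyme, and type II members include cadherin-11 (Cdh11), which fibroblasts use to adhere to each other. T-cadherin (Cdh13) is unusual in having a lipid anchor in place of a tail, and it binds adiponectin. Protocadherins adhere weakly and many act as recognition tags. Clustered protocadherin genes lie in the alpha, beta and gamma clusters, in which each variable exon has its own promoter and cells choose among them, while alpha and gamma transcripts end in exons shared within the cluster.

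Start-site sequence is shown for 4 members outside the clusters that differ in pattern below: Cdh6, with higher values in mT, Pcdh9, with higher values in mG, and Pcdh10 and Cdh18, which share a pattern across libraries. Each is the 250 bases before the annotated start, 5′ to 3′ on the gene's strand, from RefSeq (GRCm38.p6), and capitals mark CCAAT or its reverse complement ATTGG, the motif read by the general factor NF-Y.
Cdh6, chr15:13173676-13173925, minus strand: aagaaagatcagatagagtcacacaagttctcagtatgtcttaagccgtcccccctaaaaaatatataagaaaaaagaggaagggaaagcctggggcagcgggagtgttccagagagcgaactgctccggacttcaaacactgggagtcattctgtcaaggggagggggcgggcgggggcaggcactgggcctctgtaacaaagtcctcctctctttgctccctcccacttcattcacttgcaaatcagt
Pcdh9, chr14:93890680-93890929, minus strand: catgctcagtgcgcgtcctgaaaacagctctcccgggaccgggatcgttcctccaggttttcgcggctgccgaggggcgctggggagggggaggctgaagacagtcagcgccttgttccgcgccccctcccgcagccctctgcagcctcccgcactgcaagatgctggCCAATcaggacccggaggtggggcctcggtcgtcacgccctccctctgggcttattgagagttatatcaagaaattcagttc
Pcdh10, chr3:45378148-45378397, plus strand: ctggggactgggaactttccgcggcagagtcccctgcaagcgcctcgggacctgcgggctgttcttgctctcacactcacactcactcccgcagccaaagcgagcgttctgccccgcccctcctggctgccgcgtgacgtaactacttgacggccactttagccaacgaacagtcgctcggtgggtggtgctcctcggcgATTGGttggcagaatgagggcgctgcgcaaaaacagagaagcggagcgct
Cdh18, chr15:23036213-23036462, plus strand: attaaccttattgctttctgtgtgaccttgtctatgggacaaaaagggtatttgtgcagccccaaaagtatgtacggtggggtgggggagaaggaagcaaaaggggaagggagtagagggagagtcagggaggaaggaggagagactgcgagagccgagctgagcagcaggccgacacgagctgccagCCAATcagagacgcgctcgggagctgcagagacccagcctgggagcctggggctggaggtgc

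Such a sequence was at hand for 14 of the 70 members. CCAAT, on either strand, is in 9 of these 14 windows and in 34.5% of 27025 windows, 1 per gene. In Pcdh10, Pcdh9 and Cdh18 its first base lies 50, 82 and 62 bases before the start, and the Cdh6 window holds none. The Cdh24, Cdh10, Pcdh7 and Cdh23 windows hold none either, though the mean CPM of these genes was higher in mG. CACCTG, the E-box bound by Snail and Zeb repressors, or its reverse complement CAGGTG, is in 0 of the 14 windows and in 17.1% of all. CpG dinucleotides (C followed by G) number 22 in Pcdh10, 18 in Pcdh9, 8 in Cdh18 and 6 in Cdh6, against a median of 6 over all windows. A match is a description of the letters and not a binding site.

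Total counts per library were 16853561 to 19429138, so 3 counts, the floor for a gene without counts, correspond to 0.14 to 0.18 CPM. CPM are the usual depth-scaled counts, with library totals multiplied by TMM factors, and changes are mG over mT. All 8 mesenchymal markers examined were tested, and they summed to 20306 to 24109 CPM in mT and 12028 to 26953 CPM in mG. Of the other cell types' markers, 7 of 9 endothelial genes, 2 of 10 epithelial, 3 of 5 mesothelial, 5 of 7 leukocyte, 6 of 8 glial and neural and 1 of 6 skeletal muscle genes have a row. Their sums were at most 46.7, 11.6, 73.8, 18.4, 152 and 186 CPM in any library. The leukocyte gene Ptprc had 0 to 6 counts per library. In sorted bulk libraries, fewer cells of a type and less RNA per cell cannot be told apart.

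MSC of both groups carried a cadherin repertoire dominated by Cdh11 and Cdh2, and T-cadherin was abundant in mT alone of the groups. Cdh11, Cdh2 and Cdh13 together held 63.4% to 72.7% of member counts in mT and 44.3% to 61.2% in mG. Levels between genes are compared as CPM per kilobase of merged exons. On that scale the order in mT was Cdh11 at 51.4, Cdh2 at 20, Cdh13 at 19.2, Pcdh7 at 6.63, Pcdhgc3 at 6.14, Cdh6 at 5.79 and Pcdh19 at 5. Cdh11 at 34.1 to 60.7 per kilobase lay above Cdh2 at 15.6 to 22.8 in the mT libraries, while Cdh2 and Cdh13 at 15 to 26.2 overlapped, and so did Pcdh7, Pcdhgc3, Cdh6 and Pcdh19 with one another. In mG the order was Cdh2 at 47.8, Cdh11 at 27.5, Pcdh7 at 9.8, Pcdhgc3 at 8.73, Pcdh9 at 7.37, Pcdh18 at 6.83 and Pcdh19 at 6.37, and each overlapped its neighbour except Cdh11, whose lowest library at 24.7 lay above the highest of Pcdh7 at 13.1. The ratio of Cdh2 to Cdh11 per kilobase was 0.669, 0.262 and 0.359 in replicates 1, 2 and 3 of mT, and 1.84, 0.565 and 3 in those of mG. It exceeded 1 in 2 mG libraries, and mG replicate 2 lay within the mT range.

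Of the 70 members, 51 had enough counts to be tested in edgeR's quasi-likelihood fit on 13566 genes, and 1 passed a Benjamini-Hochberg adjusted p of 0.05, lower in mG. Over all genes tested 0.907% passed, 0.199% higher and 0.708% lower in mG. No member passed as higher in mG in that test; DESeq2, which called 7.28% of all genes, called 2 members higher and 4 lower. A likelihood-ratio test, which called 5.65%, called 1 higher and 4 lower, and limma-voom, which called 0.678%, called 0 higher and 1 lower. At an unadjusted p under 0.05 there were 10 members higher and 6 lower, 31.4% of those tested, against 14.6% of all genes, 7.7% higher and 6.88% lower. Groups did not overlap for 11 tested members, 5 higher and 6 lower in mG, which at 21.6% is near the 20.8% of all genes, 9.94% higher and 10.9% lower. The median log2 fold change was 0.40 over the tested members and 0.02 over all genes tested. With the replicate number as a block 2 members passed, Cdh13 and Pcdh9, where 0.796% of all genes did.

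**Figure D1:**
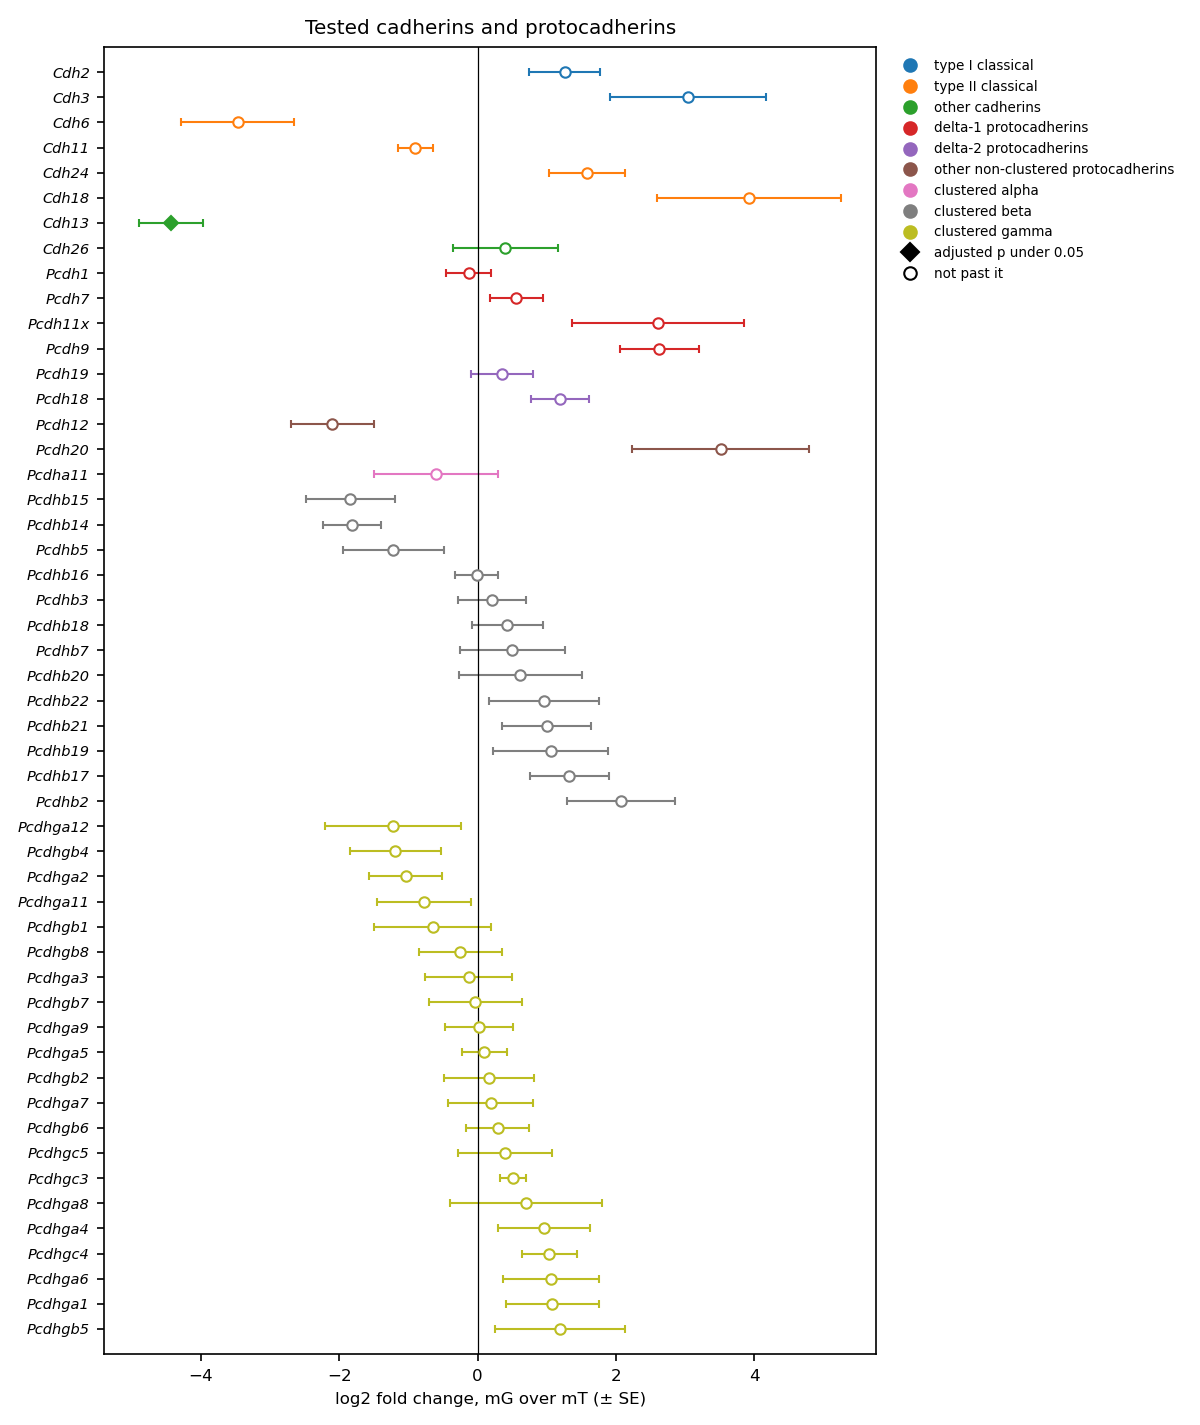
Log2 fold change of mG over mT (x axis, ± SE, edgeR) for the 51 tested members, 1 row per gene, coloured by class; filled diamonds passed an adjusted p of 0.05 and open circles did not. Cdh13 at -4.43 is the only filled symbol, Cdh6 at -3.47 lies next to it, and Cdh18 at 3.93 is farthest to the right.

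Cdh13 (ENSMUSG00000031841, chromosome 8) separated the groups most clearly. It had 169, 294 and 182 CPM in the mT libraries, in replicate order as throughout, and 6.64, 7.05 and 16.3 CPM in the mG libraries. The lowest mT library lay above the highest mG library, and the difference was 25.4, 41.7 and 11.2 times within pairs of the same replicate number. The mean fell from 215 ± 68.9 to 10 ± 5.46 CPM (SD, n = 3), a log2 fold change of -4.43 ± 0.46 (SE) with adjusted p = 0.018 in edgeR's quasi-likelihood test and 0.0411 with the replicate block. Endothelium is known to express T-cadherin. The 7 endothelial markers with a row summed to 46.7, 0.538 and 11.9 CPM in mT and 7.35, 2.94 and 3.88 CPM in mG. Of them Pecam1 had 139, 0 and 28 counts in mT and 0, 3 and 0 in mG, and Emcn had 662, 0 and 105 counts in mT and 7, 0 and 1 in mG. Kdr, the only one tested, had 67, 6 and 56 counts in mT and 116, 11 and 54 in mG (edgeR adjusted p = 0.902). The part of endothelial RNA in the Cdh13 values was not tested. Cdh13 did not pass without mT replicate 1, 2 or 3 (edgeR adjusted p = 0.0552, 0.0595 and 0.0788) or without mG replicate 1 (0.0516), while its log2 fold change stayed between -4.97 and -4.14 over the 6 omissions.

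Of the type I classical cadherins, Cdh2 and Cdh3 were tested and Cdh4 had at most 8 counts in a library. Cdh2 (chromosome 18), which encodes N-cadherin, had 184, 126 and 175 CPM in mT and 427, 132 and 598 CPM in mG. Replicates 1 and 3 of mG were above every mT library, and mG replicate 2 was level with mT. The means of 162 ± 31.5 and 386 ± 236 CPM gave a log2 fold change of 1.26 ± 0.51, which did not pass (edgeR adjusted p = 0.334). Without mG replicate 2 it was 1.65 with edgeR adjusted p = 0.0341. It was 0.80 without mG replicate 3 (0.58), the other 4 omissions gave adjusted p of 0.429 to 0.673, and leaving out both replicate 2 libraries gave 0.0704. Cdh3, which encodes the epithelial P-cadherin, had 1.11, 0.0598 and 0.299 CPM in mT and 7.95, 0.748 and 3.83 CPM in mG (log2 fold change 3.04 ± 1.13, edgeR adjusted p = 0.294; 2.17 to 4.49 with 1 library left out). The epithelial keratin gene Krt19 had 35, 27 and 21 counts in mT and 209, 15 and 109 in mG, so it too was low in mG replicate 2. The other epithelial marker with a row, Cldn7, had 0, 1 and 0 counts in mT and 4, 5 and 5 in mG. At these few counts Cldn7 was not low in mG replicate 2. The part of epithelial RNA in the Cdh3 values was not tested.

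Of the 7 type II cadherins with a row, 4 were tested and none passed. Cdh11 (chromosome 8), the most abundant member in mT, had 303, 530 and 540 CPM in mT and 257, 258 and 220 CPM in mG. The groups did not overlap, and mT replicate 1 lay close to mG. Means were 458 ± 134 and 245 ± 21.8 CPM (log2 fold change -0.90 ± 0.25, edgeR adjusted p = 0.184). DESeq2 called it, at adjusted p = 0.0239. Cdh6 (chromosome 15), which encodes K-cadherin, first described in kidney, had 24.3, 44.3 and 88.1 CPM in mT and 8.82, 1.07 and 4.24 CPM in mG. Every mT library was above every mG library, but values within mT spanned a wide range, with means of 52.3 ± 32.6 and 4.71 ± 3.9 CPM. Its log2 fold change of -3.47 ± 0.82 did not pass the quasi-likelihood test (adjusted p = 0.133). DESeq2 gave an adjusted p of 0.000143, the likelihood-ratio test 0.00117 and limma-voom 0.15. With 1 library left out its log2 fold change ranged from -4.32 (without mG replicate 1) to -2.86 (without mT replicate 3), with adjusted p of 0.079 to 0.4.

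The other type II cadherins were at low levels. Cdh18, a cadherin of the nervous system, had 0.658, 0 and 0.239 CPM in mT and 6.15, 0.42 and 7.77 CPM in mG (log2 fold change 3.93 ± 1.33, edgeR adjusted p = 0.255; 3.37 to 5.24 with 1 library left out). Replicates 1 and 3 of mG stood apart from the other 4 libraries. Cdh24 had 0.419 to 1.21 CPM in mT and 1.35 to 2.9 in mG without overlap (adjusted p = 0.264 in edgeR). Cdh10 was not tested, with 15, 0 and 6 counts in mT and 60, 7 and 3 in mG. Cdh9 and Cdh19 had at most 13 counts in a library. Among the remaining cadherins Cdh26 had 0.539 to 2.33 CPM in mT and 0.49 to 2.35 in mG, and Cdh17 and Cdh23 had at most 12 counts in a library.

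**Figure D2:**
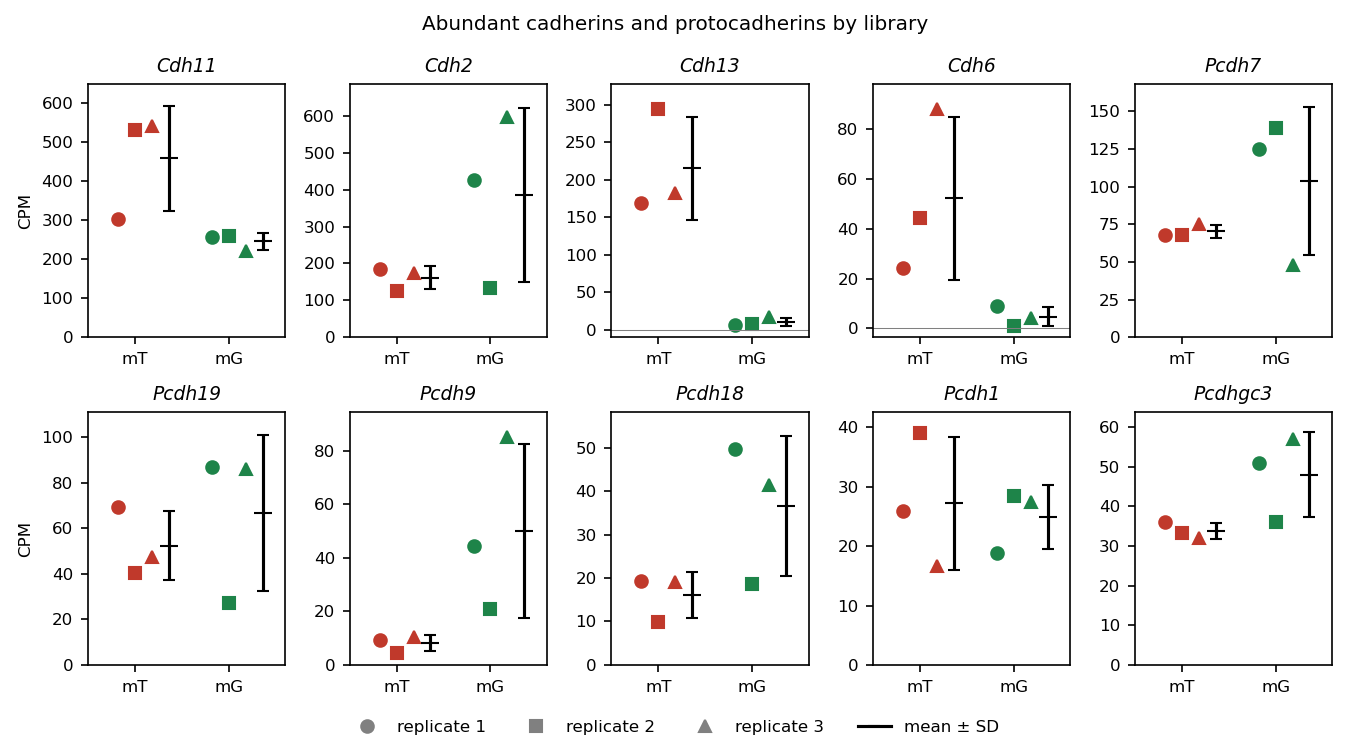
CPM (y axes, linear, each panel with its own range) of the 10 members with a mean of at least 20 CPM in either group, by library, with mean ± SD beside each group. Cdh13 and Cdh6 sit near 0 in the green mG libraries, Pcdh9 is higher in each mG library than in any mT library, and the mG replicate 2 square is the lowest mG point for Cdh2, Cdh6, Pcdh19, Pcdh9, Pcdh18 and Pcdhgc3.

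Of the delta-1 protocadherins, whose tails bind protein phosphatase 1, all 4 were tested, none passed and the median log2 fold change was 1.59. Pcdh9 (chromosome 14) had 9.26, 4.6 and 10.3 CPM in mT and 44.4, 20.7 and 85 CPM in mG. No library overlapped between groups, and mG exceeded mT by 4.79, 4.48 and 8.25 times within replicate numbers 1 to 3. Means were 8.05 ± 3.03 and 50 ± 32.5 CPM, a log2 fold change of 2.63 ± 0.57 with edgeR adjusted p = 0.113, or 0.0391 with the replicate block and 0.0341 without mG replicate 2. The other 5 omissions gave adjusted p of 0.159 to 0.334, with a lowest log2 fold change of 2.01 without mG replicate 3. Without both replicate 2 libraries the edgeR adjusted p of Pcdh9 was 0.0599. On all 6 libraries limma-voom gave an adjusted p of 0.201, DESeq2 0.000121 and the likelihood-ratio test 0.00046. Pcdh7 had 68.1, 67.8 and 75.1 CPM in mT and 125, 139 and 47.7 CPM in mG. Here mG replicate 3, and not replicate 2, was the low library, and the log2 fold change of 0.56 ± 0.38 did not pass (edgeR adjusted p = 0.572). Pcdh1, a gene linked to airway hyperreactivity, had 26, 39 and 16.7 CPM in mT and 18.8, 28.5 and 27.5 CPM in mG, with means of 27.3 ± 11.2 and 24.9 ± 5.34. Its log2 fold change was -0.13 ± 0.33 (edgeR adjusted p = 0.923). Pcdh11x, on the X chromosome, had 1.72, 0.359 and 0.479 CPM in mT and 8.77, 0.187 and 6.95 CPM in mG (edgeR adjusted p = 0.401), so its lowest library was mG replicate 2.

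The delta-2 protocadherins, several of which recruit the WAVE complex that drives actin branching, had no called member of 2 tested. Pcdh18 had 19.4, 9.87 and 19 CPM in mT and 49.8, 18.7 and 41.4 CPM in mG. Means were 16.1 ± 5.39 and 36.7 ± 16.1 CPM (log2 fold change 1.19 ± 0.42, edgeR adjusted p = 0.277), and mG was 2.57, 1.9 and 2.18 times mT within replicate numbers. Pcdh19, whose human counterpart is mutated in an epilepsy of girls, had 69.5, 40.4 and 47.2 CPM in mT and 86.8, 27 and 86.2 CPM in mG (log2 fold change 0.35 ± 0.45, edgeR adjusted p = 0.819). Pcdh10 was near 0 in 4 libraries: it had 3, 0 and 0 counts in mT and 165, 6 and 178 in mG. With 3 counts in mT, the ratio of mG to mT was 109, with a 95% exact counting interval of 37 to 531 that covers counting error only. It was not tested, because too few libraries reached the minimum count. Without a filter its edgeR adjusted p was 0.14. It passed the filter in 4 of the 6 omissions, and there only through mG replicates 1 and 3, where its counts are high. The edgeR adjusted p was 0.0232 without mG replicate 2 and 0.311, 0.403 and 0.446 without mT replicate 1, 2 and 3. Without both replicate 2 libraries, where it entered by the same route, it was 0.0523. Because Pcdh10 entered these fits through its high group alone, their p-values are not support for a difference. Pcdh17 had at most 9 counts in a library.

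The other non-clustered members, Pcdh12 and Pcdh20, went in opposite directions. Pcdh12, an endothelial protocadherin, had 17, 20 and 40 counts in mT and 4, 6 and 9 in mG, without overlap (log2 fold change -2.10 ± 0.60, edgeR adjusted p = 0.189). The endothelial sums given with Cdh13 stand beside these counts too, and their part was not tested. Pcdh20 had 0.556, 0 and 0.359 CPM in mT and 2.56, 0.467 and 7.95 CPM in mG (log2 fold change 3.52 ± 1.28, edgeR adjusted p = 0.285; 2.26 to 4.29 with 1 library left out), and its mG replicate 2 value lay within the mT range.

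Outside the clusters, replicate 2 was the lowest library of both groups for 8 of 16 tested members, Cdh2, Cdh3, Cdh18, Pcdh9, Pcdh11x, Pcdh18, Pcdh19 and Pcdh20. This was the case for 0 of 13 beta and 0 of 21 gamma members. Over all 51 tested members the share was 15.7%, near the 15.5% of all genes tested. Pcdh10 followed the same order in mG and had 0 counts in mT replicates 2 and 3. The contrast between classes was noticed in these values and is a description of 6 libraries. The mesothelial sum of Msln, Upk3b and Upk1b was 12.1, 5.75 and 73.8 CPM in mG replicates 1 to 3 and 14.9, 10.9 and 8.08 CPM in mT, and its part in these values was not tested.

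**Figure D3:**
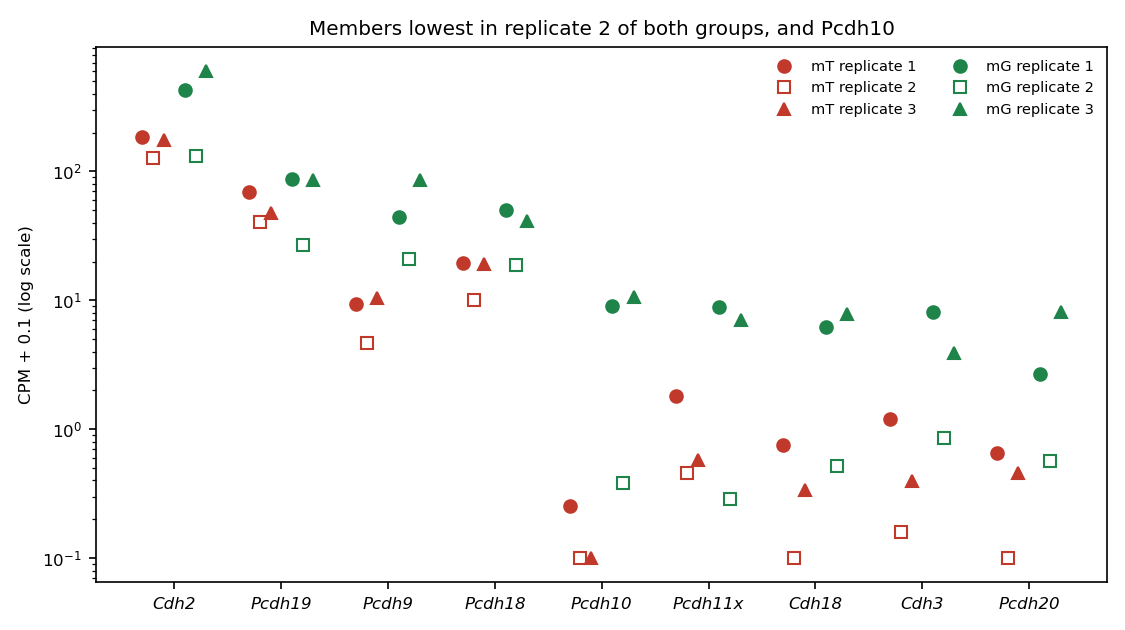
CPM plus 0.1 (log y axis) in each library for the 8 members that were lowest in replicate 2 of both groups and for Pcdh10, ordered by mean mG level; squares without fill are replicate 2. The mG circles and triangles lie above the mG squares in every gene, and for Pcdh10, Pcdh11x, Cdh18, Cdh3 and Pcdh20 the mG squares lie below 1 CPM.

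None of 35 tested clustered protocadherins passed. Most of the clustered rows were at low levels in both groups, while Pcdhgc3 had 32.1 to 57 CPM. All 46 lie on chromosome 18. The 21 gamma members were all tested and summed to 117, 114 and 114 CPM in mT and 114, 148 and 146 CPM in mG. The 20 beta members, of which 13 were tested, summed to 32.9, 32.3 and 45.2 CPM in mT and 21.7, 104 and 46.3 CPM in mG. The 5 alpha members summed to at most 2.94 CPM in a library. With the members of a cluster summed to 1 row in the fit, log2 fold changes were 0.05 for alpha, 0.64 for beta and 0.25 for gamma, with edgeR adjusted p = 0.986, 0.671 and 0.5.

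Pcdhgc3, one of the gamma C-type isoforms, which form a subgroup of their own, was the leading gamma member in all 6 libraries. It had 36, 33.2 and 32.1 CPM in mT and 50.9, 36.1 and 57 CPM in mG, which overlapped nowhere although mG replicate 2 was close to mT replicate 1. Its log2 fold change was 0.51 ± 0.19 (edgeR adjusted p = 0.293). It held 28.2% to 30.9% of gamma counts in mT and 44.6%, 24.3% and 39% in mG replicates 1 to 3. The lowest gamma row had 4 to 19 counts in each library, against 537 to 968 for Pcdhgc3, so reads in the exons shared by all gamma transcripts cannot have been added in full to every row. How such reads were assigned is not stated, and values of single alpha and gamma rows are uncertain for that reason. The other C-type members were Pcdhgc4, with 0.538 to 0.718 CPM in mT and 1 to 1.59 in mG (edgeR adjusted p = 0.309), and Pcdhgc5, with 204 counts in mG replicate 1 and 24 to 92 in the other 5 libraries.

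The second most abundant gamma row changed from library to library. It was Pcdhga7 in mT replicate 1, Pcdhgb4 in mT replicate 2, Pcdhgb2 in mT replicate 3 and mG replicate 2, Pcdhgc5 in mG replicate 1 and Pcdhga8 in mG replicate 3. Pcdhga8 had 297 counts in mG replicate 3 and 24 to 98 in the other 5 libraries. Pcdhgb5 had 257 counts there and 17 to 74 elsewhere. Pcdhgb2 had 578 counts in mG replicate 2 against 73 to 222 elsewhere. Pcdhga8, Pcdhgb5, Pcdhgb2 and Pcdhgc5 were thus each highest in an mG library. Pcdhgb4 was highest in mT replicate 2, at 14.4 CPM. Pcdhga7 had 13.1 CPM in mT replicate 1 and nearly as much, 12.9 CPM, in mG replicate 2. Its means were 8.42 CPM in mT and 9.58 CPM in mG. Over all gamma members, mG replicates 1, 2 and 3 were the highest library for 1, 8 and 4 members. The mT replicates 1, 2 and 3 were the highest for 1, 5 and 2.

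Beta protocadherins, which are single-exon genes and share no exons, were led by Pcdhb22 and Pcdhb17 in every library. The leading row held 21.8% to 36.8% of beta counts. Pcdhb22 had 7.18, 6.52 and 13.4 CPM in mT and 4.03, 38.4 and 10.1 CPM in mG (log2 fold change 0.96 ± 0.79, edgeR adjusted p = 0.674). Pcdhb17 had 5.77, 9.33 and 4.85 CPM in mT and 5.72, 27.8 and 16.5 CPM in mG (edgeR adjusted p = 0.36). In both genes mG replicate 2 was the highest library. It was the highest for 8 of 13 tested beta and 8 of 21 gamma members, and for 24.7% of all genes tested. Without mG replicate 2 the Pcdhb22 log2 fold change was -0.38. In that library the glial and neural markers summed to 152 CPM against 35.6 to 78.1 in the others, with 2306 counts of S100b against 7 to 143. The part of these cells in the beta values was not tested. Pcdhb14 went the other way, with 3.95, 4.01 and 3.77 CPM in mT and 0.708, 1.73 and 0.883 CPM in mG, no overlap, and a log2 fold change of -1.81 ± 0.42 (edgeR adjusted p = 0.132). Its adjusted p was 0.00277 with DESeq2 and, in edgeR, 0.0368 without mG replicate 2 and up to 0.4 in the other 5 omissions. Of the alpha members Pcdha11 alone was tested, with 28, 9 and 10 counts in mT and 3, 28 and 3 in mG (edgeR adjusted p = 0.849).

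**Figure D4:**
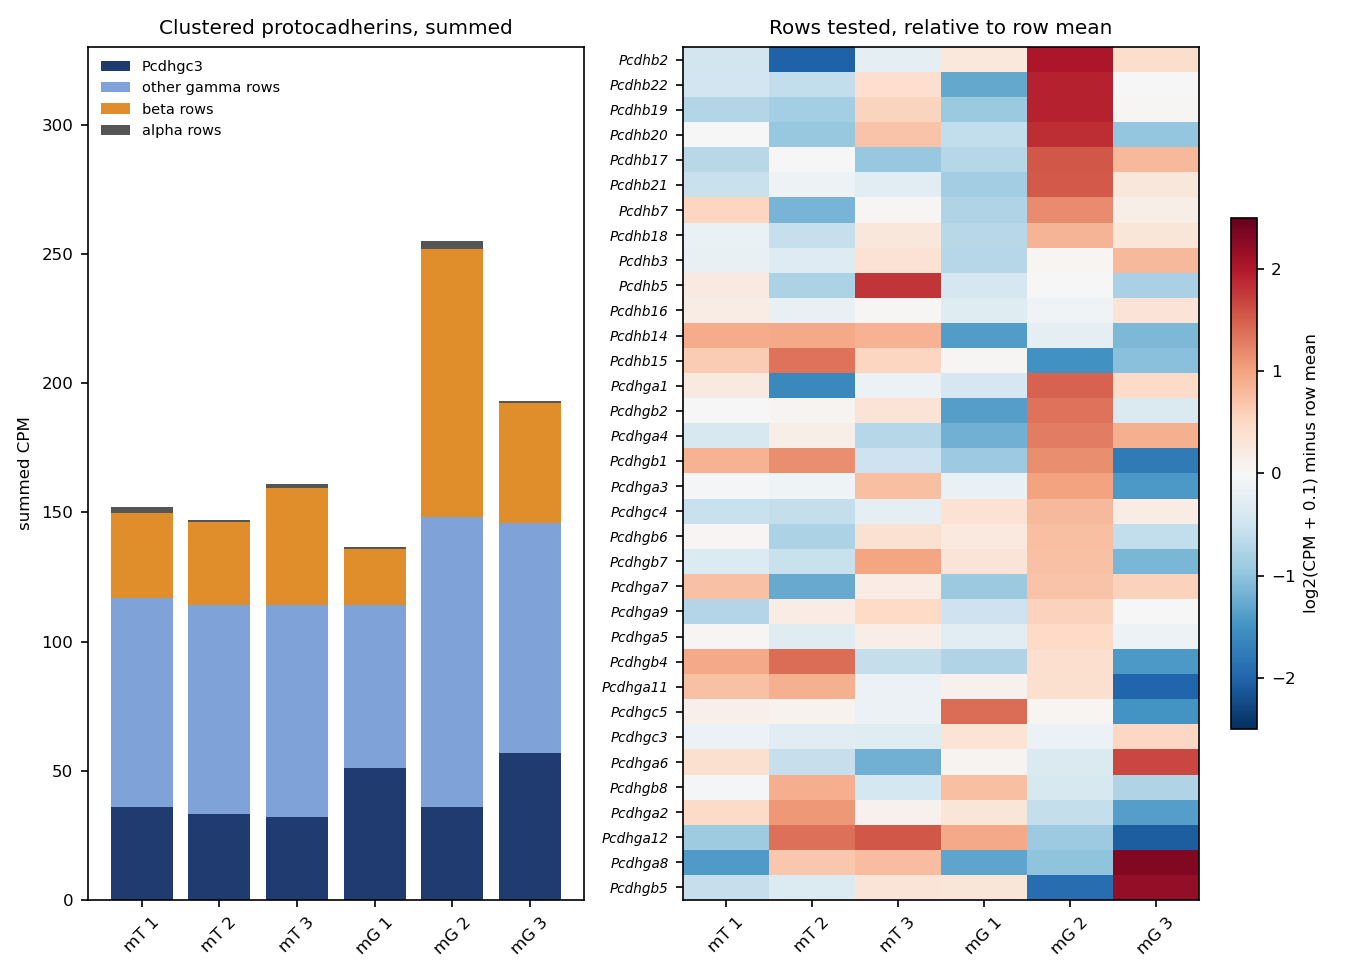
Left, summed CPM (y axis) of the clustered protocadherins in each library, stacked as Pcdhgc3, other gamma, beta and alpha members; right, log2(CPM + 0.1) minus the row mean for the 34 tested beta and gamma members (rows) by library (columns). The beta part of the bar is tallest in mG replicate 2 at 104 CPM, and the right panel shows that most beta rows are highest in that library.

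The 19 members below the filter held 8 to 352 counts each over the 6 libraries, and Pcdh10 held the most. A count of 0 allows a level of up to 0.14 to 0.18 CPM, depending on the library. Apart from Pcdh10 and Cdh10, they are given here by their counts alone.

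No gene passed the test among the partners through which cadherins act. Of 89 genes in 6 lists, 64 were tested and 0 passed, beside 0.907% of all genes. At an unadjusted quasi-likelihood p under 0.05, 5 were higher and 8 lower, beside 7.7% and 6.88% of all genes. The median log2 fold change was -0.01, beside 0.02 over all genes. DESeq2 called 8 of the 64 partner genes, the likelihood-ratio test 6 and limma-voom 0. Of all genes these tests called 7.28%, 5.65% and 0.678%. Among 15 tested catenins and plaque genes, Afdn, which encodes the nectin-binding adaptor afadin, had 147, 241 and 251 CPM in mT and 99.7, 57.1 and 95.1 CPM in mG (log2 fold change -1.34 ± 0.30, edgeR adjusted p = 0.117). Plekha7, a junctional partner of p120 catenin, had 1.32 to 2.22 CPM in mT and 4.63, 36.2 and 5.42 CPM in mG, with mG replicate 2 far above the others (edgeR adjusted p = 0.185). Ctnnd1, which encodes p120 catenin itself, had 53.5 ± 7.99 CPM in mT and 79.3 ± 17.4 in mG (edgeR adjusted p = 0.269).

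Among 7 tested genes of the wider cadherin superfamily, Clstn1, which encodes calsyntenin-1, had 225 ± 24.4 CPM in mT and 144 ± 16.9 in mG (edgeR adjusted p = 0.139). Ret, the GDNF receptor kinase with cadherin-like domains, had 1.37, 4.01 and 1.86 CPM in mT and 0.0545, 0.561 and 0.471 CPM in mG (edgeR adjusted p = 0.202). Fat4, a giant cadherin of planar polarity, had 59.6 ± 16.7 and 149 ± 73.1 CPM (edgeR adjusted p = 0.237). Of 10 processing and turnover genes, Pcsk6, a proprotein convertase of the furin family, had 611, 1088 and 856 CPM in mT and 39.9, 226 and 50.7 CPM in mG. Its groups did not overlap and its log2 fold change was -3.01 ± 0.73, with edgeR adjusted p = 0.139, or 0.0141 without mG replicate 2, the only omission of 1 library in which it passed. The other genes of that list reached at least adjusted p = 0.42, among them Rab11a and Numb.

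Of 11 tested protocadherin effectors, Wasf3, a WAVE family member, had 19.7, 34.6 and 15.1 CPM in mT and 6.48, 6.63 and 2.94 CPM in mG (log2 fold change -2.11 ± 0.44, edgeR adjusted p = 0.106, or 0.0518 with the replicate block). Ptk2b, the kinase Pyk2 that clustered protocadherins inhibit, had 40.4 ± 7.31 and 22.1 ± 3.31 CPM (edgeR adjusted p = 0.117), and Wasf1 had 6.71 ± 0.405 and 3.98 ± 0.81 CPM (0.28). The groups did not overlap for these 3 genes. Of 12 genes that act in the choice of clustered protocadherin promoters, such as Ctcf, cohesin subunits and Smchd1, the smallest edgeR adjusted p was 0.334, for Dnmt1, with 39.9 ± 12.1 CPM in mT and 70.1 ± 26.2 in mG. Rad21 and Smc3 had adjusted p = 0.452 and 0.649. Of 9 nectin and junction genes Gja1, which encodes connexin 43, had 83.4 ± 19.6 and 44.2 ± 18.7 CPM (edgeR adjusted p = 0.302), and Jam3 and Nectin2 had adjusted p = 0.374 and 0.452.

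**Figure D5:**
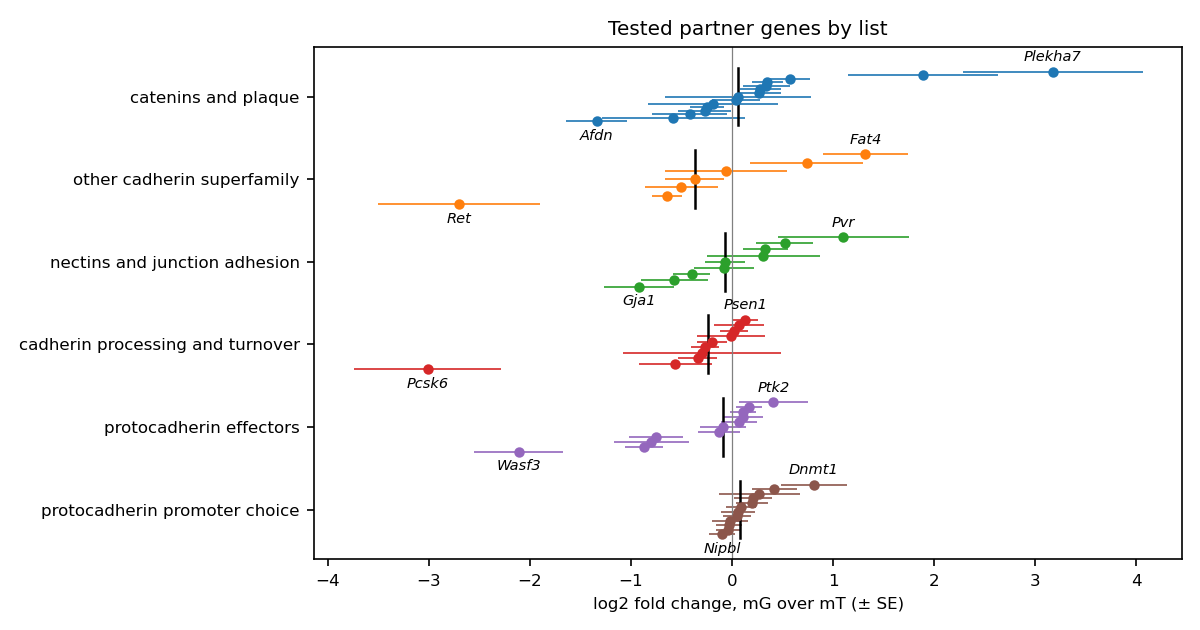
Log2 fold change of mG over mT (x axis, ± SE) for the 64 tested partner genes, grouped by list (y axis), with black bars at each list's median and the lowest and highest gene of each list named. No point passed an adjusted p of 0.05, and Pcsk6 at -3.01 and Plekha7 at 3.17 lie farthest from 0.

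The authors' deposited table also compares mG with mT, and in it 13 of the 70 members, 18.6%, pass an adjusted p of 0.05, against 6.05% of its rows. Of these, the authors' deposited table lists 8 as higher in mG (Pcdh10, Pcdh9, Cdh18, Pcdh20, Cdh3, Cdh9, Pcdha9 and Pcdhb2) and 5 lower (Cdh13, Cdh6, Pcdhb14, Pcdh12 and Pcdhb15). Groups overlap in 5 of the 13, and 10 of the 13 were tested here. For Cdh13, Cdh6 and Pcdh9 the authors' deposited table lists adjusted p of 8.42e-13, 0.000325 and 0.000606, beside a column headed LR. The name of that table carries the terms RUV and UQ, and it covers 20645 rows. The fit here used TMM factors and a quasi-likelihood test on 13566 genes, so the counts of members passing are not like for like.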

How the data were processed

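Counts per gene were taken from the table the authors deposited, which holds whole-number counts for 6 libraries. Per the submitters' processing notes, FastQC 0.11.9, cutadapt 5.0, Trimmomatic 0.38, STAR and edgeR 4.0 were used; per the labels' protocols, libraries were unstranded, so reads of overlapping antisense genes are not separated. No source used here names the build or the counter. Rows without a gene name carry an Ensembl ID, hold 0.013% to 0.0352% of counts and were kept. Per the file headers, the authors also give RPKM and a gene length. That length equals the exons of all transcripts added together plus 1 base per exon in 69 of 70 members (GENCODE M21), so RPKM understate genes with many transcripts and were not used; merged exon lengths were. The authors' log2 fold changes and p-values are quoted only by name.

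Tests used edgeR 4.0.16 in R 4.3.3 (glmQLFit, glmQLFTest; TMM factors 0.926 to 1.134; filterByExpr, minimum count 10) over 13566 genes with Benjamini-Hochberg adjustment at 0.05; the standard error is the log2 fold change over the square root of F. The code was tested on simulated data. Alternatives were other normalizations and filters, DESeq2 1.42.0, limma-voom (limma 3.58.1), a likelihood-ratio test, the replicate block and omitted libraries. The main fit had the group as its only term and did not pair the libraries. Replicate numbers were treated as pairing only in the replicate block and in the ratios within equal replicate numbers. The reason was that deviations from group means correlated across genes at 0.24, 0.18 and 0.3 for equal numbers, each above 0.1. This pairing comes from the data: no label explains the numbers.

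Members and lists were chosen with earlier results of these data known. Full values go to called members, those with a mean of at least 20 CPM in a group, the highest of each class, those whose call changes with the block, untested ones with at least 50 counts in a group, and up to 3 partners per list; other named members were chosen after their values were seen. Sequences come from RefSeq promoters (GRCm38.p6).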

Additional observations from a re-analysis of the deposited data

How the results depend on the processing

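The count of 123 called genes, and 1 called member (Cdh13, lower in mG), moved by less than 1.5 times with upper-quartile or RLE scaling, both other filters and limma-voom. DESeq2 called 987 genes, with 6 members (2 higher, 4 lower) and 8 partner genes, and the likelihood-ratio test 766, with 5 members (1 higher, 4 lower) and 6 partner genes. The replicate block called 108 genes with 2 members, 1 of them higher (Pcdh9), and it changed no other call of a member or partner gene. Without both replicate 2 libraries 46 genes, 0 members (0 lower) and 1 partner gene, Pcsk6, were called. With 1 library left out the count of genes was 20 to 362, of members 0 to 5 (0 to 3 higher, 0 to 2 lower) and of partner genes 0 to 2; the highest of each came without mG replicate 2. Pcdh1 reversed without mT replicate 2 (0.22), without mG replicate 1 (0.04) and without both replicate 2 libraries (0.10), and Pcdhb22 without mG replicate 2 (-0.38, the lowest of -0.38 to 1.42 with 1 library left out) and without both (-0.57), none of them called; the cause was not tested. Members under the filter enter only the fit without a filter and those omissions in which they pass it. Pcdh10, called without mG replicate 2, entered that fit only through the mG group, where it is high. Having 3 libraries per group limits all of these values.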
